A study of Mus musculus with 15 samples.

Results

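The 10 genes described here encode the 2 main glucose transporters of lymphocytes, Slc2a1 and Slc2a3, and 8 enzymes of glycolysis, Hk1, Hk2, Pfkp, Aldoa, Pgk1, Eno1, Pkm and Ldha. They were chosen by name as members of the pathway, with earlier results of these data known, from a table of 22797 genes, and all 10 passed the filter on low counts that left 15339 genes for testing. RNA was sequenced from group 3 and group 2 innate lymphoid cells (ILC3 and ILC2), lymphocytes without rearranged antigen receptors, sorted by flow cytometry from the small intestine of female mice. The groups were ILC3 at zeitgeber times 4, 10, 16 and 23 h (ZT4, ZT10, ZT16 and ZT23, hours after the cue that starts the animals' day) with 2 libraries each, and ILC2 at the same times with 2 libraries each except ZT16, which had 1. That gives 8 ILC3 and 7 ILC2 libraries, with no treatment or genetic change named in the labels. Intestinal cells from 6 mice were pooled at each time before sorting. Whether both libraries of a group stem from independent pools is not stated, and the p-values then cover only the spread among these samples, part of which may be technical. All ILC3 libraries carry batch 2 and all ILC2 libraries batch 1 in the labels, so no ILC3 to ILC2 difference given here can be told apart from one between the batches.

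Glucose enters lymphocytes through transporters of the Slc2a family and is trapped as glucose 6-phosphate by hexokinases. Phosphofructokinase commits it to glycolysis, aldolase splits the sugar, and phosphoglycerate kinase, enolase and pyruvate kinase carry the products to pyruvate, with ATP made at the kinase steps. Lactate dehydrogenase turns pyruvate into lactate and restores the cofactor that the pathway consumes. Several steps have more than one isoform gene, and immune cells are known to raise glucose transporters, Hk2 and Ldha when activated or short of oxygen.

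Total counts were 5903163 to 24794403 in ILC3 and 4016298 to 18538315 in ILC2, and the 10 genes took 0.292 to 0.359% of all counts in ILC3 and 0.228 to 0.322% in ILC2. Values below are in CPM, read counts scaled to a common library total with TMM factors, and a gene is called when its adjusted p is under 0.05 in edgeR's quasi-likelihood test with Benjamini-Hochberg adjustment over all genes tested. Markers matched the cell type labels: all 6 ILC3 markers were higher in ILC3 (summed level 840 to 2404 CPM in ILC3 and 18.8 to 58.6 CPM in ILC2) and all 6 ILC2 markers were lower in ILC3 (30.1 to 101 CPM in ILC3 and 1285 to 2586 CPM in ILC2). Markers of other cells were present as well. Of 8 plasma and B cell genes 7 were lower in ILC3, with sums of 369 to 4331 CPM in ILC3 and 18789 to 192283 CPM in ILC2. Most of these sums was Jchain, which alone had 270 to 4080 CPM in ILC3 and 18105 to 188364 CPM in ILC2. Of 8 myeloid and mast cell genes 6 were higher in ILC3, at 2247 to 3995 CPM in ILC3 and 385 to 1853 CPM in ILC2. Of 7 T cell genes 4 were higher and 2 lower in ILC3, at 318 to 2624 CPM in ILC3 and 453 to 747 CPM in ILC2. Epithelial genes (1 of 8 higher), stromal and endothelial genes (1 of 7 lower) and erythroid genes (0 of 4) stood apart mainly in single libraries: replicate 2 of ILC3 at ZT23 had the highest epithelial (2734 CPM) and erythroid (1045 CPM) sums, and replicate 2 of ILC3 at ZT4 had the highest stromal sum (420 CPM). No gene of these lists was at 0 in all libraries of a cell type.

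The upstream sequences of 4 of the genes are shown because they carry, outside annotated exons, a short element known from glycolytic promoters, ACGTG, the core of hypoxia response elements, which is also part of the E-box CACGTG. Each is the 250 bases before a RefSeq start site on build GRCm38.p6 (the mm10 assembly), written on the gene's own strand, with matches to ACGTG or its reverse complement CACGT in capitals, and none of these windows overlaps a GENCODE exon. They are the windows of Hk2 (chr6:82774455-82774704, minus strand), of Aldoa (chr7:126799255-126799504, minus strand), of Pgk1 (chrX:106186850-106187099, plus strand) and of Ldha (chr7:46845554-46845803, plus strand).
Hk2: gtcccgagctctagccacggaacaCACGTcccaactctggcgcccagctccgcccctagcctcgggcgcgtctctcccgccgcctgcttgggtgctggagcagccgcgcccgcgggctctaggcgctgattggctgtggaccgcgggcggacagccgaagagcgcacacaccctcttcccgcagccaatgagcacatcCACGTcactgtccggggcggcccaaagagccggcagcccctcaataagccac
Aldoa: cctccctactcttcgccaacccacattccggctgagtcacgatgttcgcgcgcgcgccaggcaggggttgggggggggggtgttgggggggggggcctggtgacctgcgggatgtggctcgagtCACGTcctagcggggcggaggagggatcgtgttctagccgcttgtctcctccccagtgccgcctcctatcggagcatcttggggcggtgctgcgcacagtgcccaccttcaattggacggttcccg
Pgk1: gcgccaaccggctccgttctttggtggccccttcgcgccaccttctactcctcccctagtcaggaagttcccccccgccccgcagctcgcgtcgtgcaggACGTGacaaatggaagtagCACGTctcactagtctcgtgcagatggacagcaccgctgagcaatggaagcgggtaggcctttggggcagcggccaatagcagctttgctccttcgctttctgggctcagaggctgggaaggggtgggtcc
Ldha: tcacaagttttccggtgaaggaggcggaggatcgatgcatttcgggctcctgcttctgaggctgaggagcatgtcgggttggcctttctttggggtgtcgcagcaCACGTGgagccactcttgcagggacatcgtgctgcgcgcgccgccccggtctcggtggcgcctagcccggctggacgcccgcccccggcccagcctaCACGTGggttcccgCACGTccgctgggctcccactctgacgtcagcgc
RefSeq windows were found for 9 of the 10 genes, 16 start sites in all, and Slc2a3 had no entry. ACGTG on either strand occurred for 6 of these 9 genes, the 4 shown and Slc2a1 and Pkm, whose windows with the element overlap exons in part. By window it occurred in 7 of 16, against 18.3% of the 20946 windows of all genes in the files, and CACGTG in 1 of 16, against 6.88% of all windows. The Ldha window shown held 2 copies of CACGTG, each of which contains ACGTG on both strands, and 1 further ACGTG. At this Ldha start site, alone among the 16, the first bases lie in no GENCODE transcript. The other Ldha window (chr7:46846832-46847081), whose start site does lie in one, held 0 ACGTG and 0 CACGTG. The Hk2 and Pgk1 windows held 2 ACGTG each and the Aldoa window 1. A further Aldoa window (chr7:126799179-126799428) overlaps the one shown and holds the same match, so the 7 windows are not separate sites. As given below, Hk2 was higher in ILC3, Aldoa and Slc2a1 were lower, and Pgk1, Pkm and Ldha were not called, so genes with the element lay in each class. A match is a description of these letters and was not tested as a binding site.

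The first comparison asked how the 10 genes differ between the cell types when their times are averaged, with each of the 4 times given equal weight. Hk2, Pfkp and Eno1 were higher in ILC3, Aldoa and Slc2a1 were lower, and Slc2a3, Hk1, Pgk1, Pkm and Ldha were not called. The genes did not move in one direction: 5 of the 10 genes were called, 3 higher and 2 lower in ILC3, beside 27.1% of all genes tested (15.1% higher and 12.0% lower). The median log2 fold change of the 10 genes was 0.08, against 0.11 over all genes tested. The libraries of the 2 cell types did not overlap for 3 of the genes, Hk2, Pfkp and Aldoa, as for 12.1% of all genes tested. In bulk samples such as these, fewer cells of a type and less RNA per cell cannot be told apart.

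**Figure D1:**
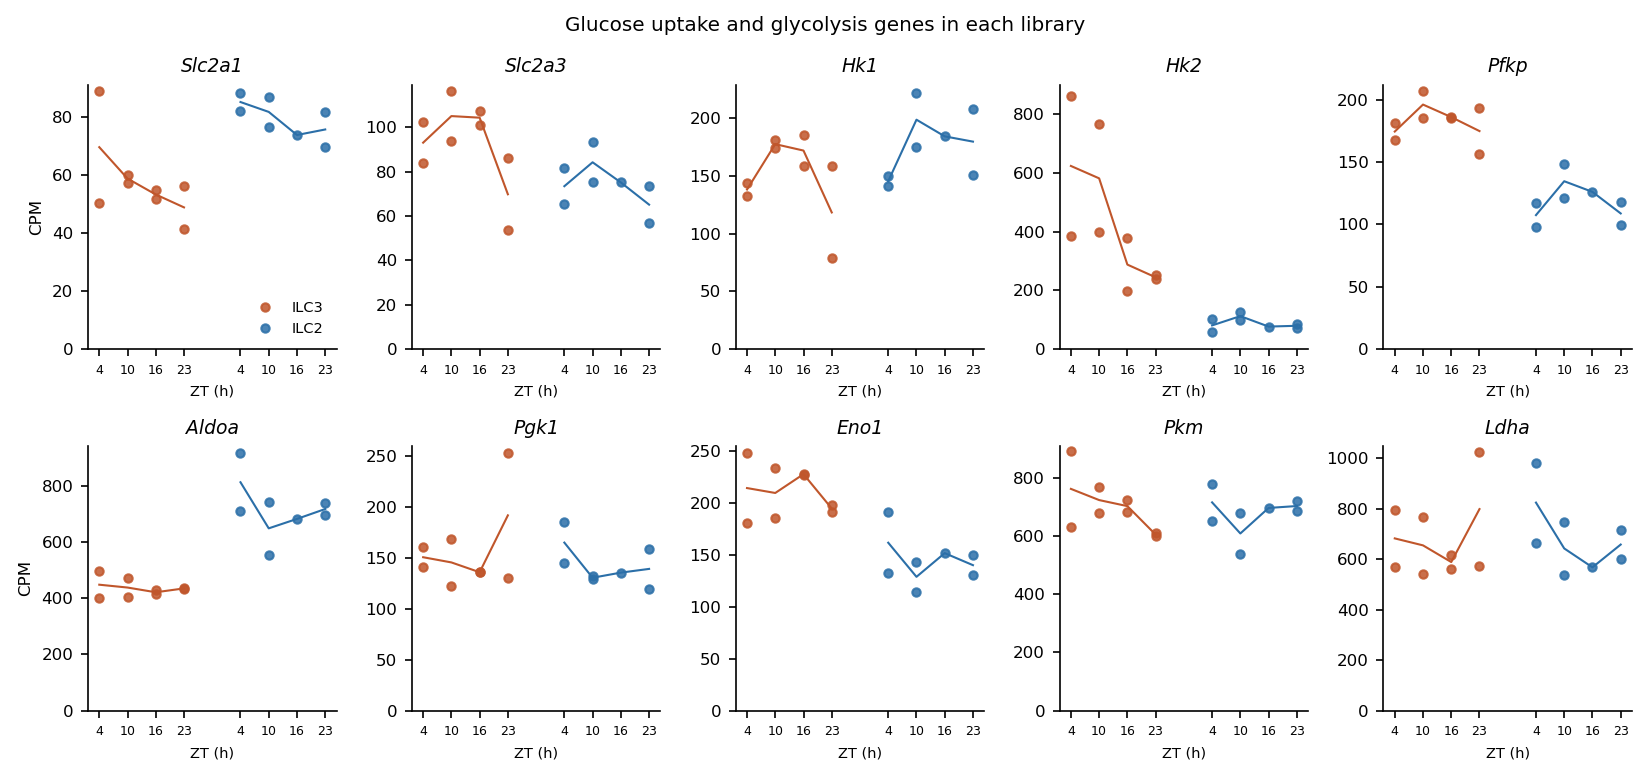
CPM of each of the 10 genes in every library (points), with ILC3 in orange on the left and ILC2 in blue on the right of each panel, against zeitgeber time in hours; lines join the means of each time. Hk2 and Pfkp lie higher and Aldoa lower in all ILC3 libraries than in any ILC2 library, and the ILC3 values of Hk2 run between 197 and 861 CPM.

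**Figure D2:**
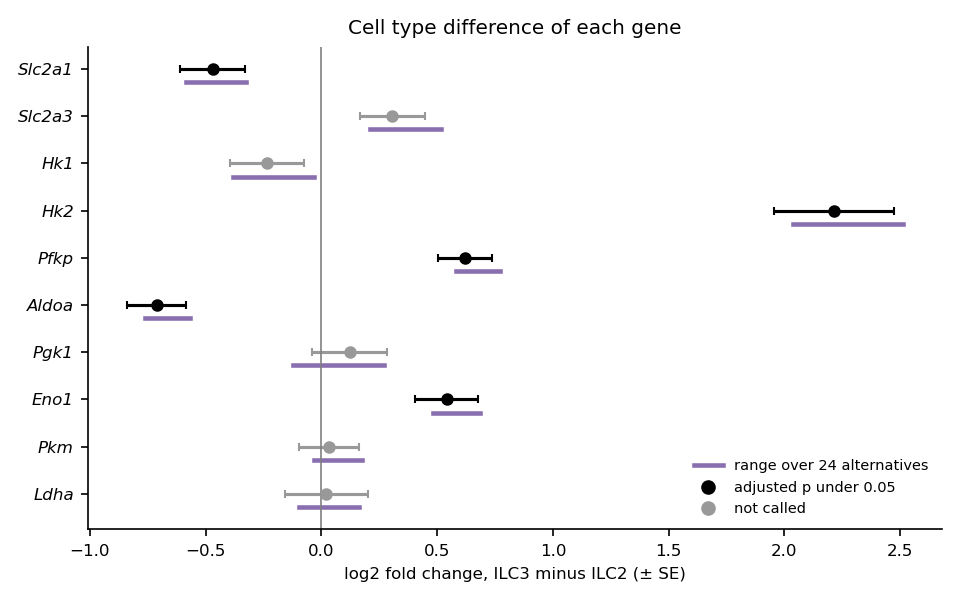
Log2 fold change of each gene, ILC3 minus ILC2 (points, ± SE), black where the adjusted p was under 0.05 and grey where it was not; the purple bar below each point spans the values under 24 alternative analyses. Hk2 stands at 2.21, Pfkp at 0.62 and Eno1 at 0.54, and Slc2a1 at -0.47 and Aldoa at -0.71.

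The glucose transporter genes leaned in opposite directions. Slc2a1 (Entrez 20525; mm10 chromosome 4, 119108745 to 119137330), the basal glucose transporter GLUT1, had 88.9 and 50.4 CPM (ZT4), 57.4 and 60.2 CPM (ZT10), 51.7 and 55.0 CPM (ZT16) and 41.3 and 56.4 CPM (ZT23) in ILC3. In ILC2 it had 88.2 and 82.3 CPM (ZT4), 76.8 and 86.9 CPM (ZT10), 73.9 CPM (ZT16) and 81.8 and 69.7 CPM (ZT23). All ILC3 libraries but replicate 1 at ZT4 lay under every ILC2 library, and that 1 library lay above them all. The log2 fold change was -0.47 ± 0.14 (SE; edgeR adjusted p = 0.0262). The call was lost when library size was the only scaling (-0.33, adjusted p = 0.0638), a setting that moved the median of all genes to 0.26 and the share of calls that were higher in ILC3 to 69.4%, against 55.8% with TMM.

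Slc2a3 (chromosome 6, 122727809 to 122802363), the high-affinity transporter GLUT3, had 53.6 to 116 CPM in ILC3 (median 97.6) and 57.0 to 93.3 CPM in ILC2 (median 75.2). The ranges overlapped, although the ILC3 libraries lay above the ILC2 libraries of the same time at 3 of 4 times. Its difference of 0.31 ± 0.14 (SE) was not called (edgeR adjusted p = 0.132), and it was called only with library size as the scaling (0.45, adjusted p = 0.0487) among the 24 alternatives. The lowest ILC3 value, 53.6 CPM, was that of replicate 2 at ZT23, the library with the highest epithelial sum. The ratio of Slc2a3 to Slc2a1 within a library, per kilobase of transcript, does not depend on how libraries are scaled. It was 0.618 to 1.35 in ILC3 and 0.452 to 0.698 in ILC2, a difference of mean log2 ratios of 0.80 (exact permutation test of cell type within time, two-sided, p = 0.00309, adjusted over 4 ratios p = 0.00412). The ranges overlapped through that same ILC3 library, which had the ratio of 0.618.

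The largest difference was in a hexokinase. Hk2 (Entrez 15277; mm10 chromosome 6, 82725025 to 82774454), the inducible hexokinase that binds mitochondria, had 861 and 386 CPM (ZT4), 765 and 398 CPM (ZT10), 378 and 197 CPM (ZT16) and 251 and 238 CPM (ZT23) in ILC3. In ILC2 it had 103 and 58.7 CPM (ZT4), 126 and 97.9 CPM (ZT10), 76.6 CPM (ZT16) and 72.8 and 85.8 CPM (ZT23). The lowest ILC3 library stood above the highest ILC2 library, and the ILC3 libraries spread widely, from 197 to 861 CPM. The fitted difference was 4.64-fold (log2 2.21 ± 0.26, SE; edgeR adjusted p = 5.68e-05), and the call held under all 24 alternatives, with log2 values of 2.04 to 2.51. The ILC3 libraries with the highest Hk2, replicate 1 at ZT4 and replicate 1 at ZT10, had the highest (3995 CPM) and the lowest (2247 CPM) myeloid sum among the ILC3 libraries. The same 2 libraries had the highest sums of ILC3 markers, 2404 and 1747 CPM.

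Hk1 (chromosome 10, 62268855 to 62379920), the constitutive hexokinase, had 78.6 to 186 CPM in ILC3 (median 158) and 141 to 222 CPM in ILC2 (median 175). The ranges overlapped and the difference of -0.23 ± 0.16 (SE) was not called (edgeR adjusted p = 0.311). It was called in the fit without replicate 1 of ILC3 at ZT23, at -0.38. Within libraries, the ratio of Hk2 to Hk1 per kilobase was 1.02 to 5.32 in ILC3 and 0.337 to 0.590 in ILC2, with no overlap. The mean log2 ratio was 1.08 ± 0.77 in ILC3 (SD, n = 8) and -1.30 ± 0.35 in ILC2 (SD, n = 7), and the difference of 2.38 gave p = 0.00154 in the exact permutation test, the smallest that the 648 arrangements allow (adjusted p = 0.00412).

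A further hexokinase changed the balance in the same direction. Hk3, an isoform known from myeloid cells, averaged 66.8 ± 20.0 CPM in ILC3 (SD, n = 8) and 5.15 ± 3.35 CPM in ILC2 (SD, n = 7), a log2 fold change of 3.76 ± 0.41 (SE; edgeR adjusted p = 3.34e-05). Of the transcripts of the 3 genes, per kilobase, Hk2 made up 56.4 ± 11.1% in ILC3 and 28.2 ± 4.54% in ILC2, Hk1 27.5 ± 8.66% in ILC3 and 69.0 ± 6.04% in ILC2, and Hk3 16.1 ± 3.44% in ILC3 and 2.78 ± 1.72% in ILC2 (SD). By the deposited gene lengths, Hk2 was thus the leading hexokinase transcript in every ILC3 library and Hk1 in every ILC2 library. In replicate 2 of ILC3 at ZT16 the shares of Hk2 and Hk1 were nearly equal, at 41.2% and 40.4%. The 3 genes together had 133 ± 51.0 CPM per kb in ILC3 and 56.7 ± 9.11 in ILC2 (SD), and the ranges of 74.3 to 210 and 42.6 to 67.8 did not overlap. The ILC2 library with the highest Hk3, replicate 1 at ZT4 with 10.0 CPM, also had the highest myeloid sum in ILC2, 1853 CPM. In ILC3 the libraries with the highest Hk3, replicates 2 and 1 at ZT10 with 91.2 and 87.8 CPM, had the lowest myeloid sums of that cell type, 2524 and 2247 CPM. Itgax, a gene of that sum, followed it in ILC3 only in part. It was highest, at 1357 CPM, in replicate 1 at ZT4, which had the highest myeloid sum (3995 CPM) and the highest Hk2 (861 CPM). Replicates 2 and 1 at ZT10 had 724 and 654 CPM of Itgax. It was lowest in replicates 1 and 2 at ZT23 (372 and 389 CPM), with sums of 3441 and 3012 CPM. Replicate 2 at ZT16, which had the lowest Hk2 in ILC3 (197 CPM), had 717 CPM of Itgax. The part of myeloid RNA in the Hk2 and Hk3 differences was not tested.

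**Figure D3:**
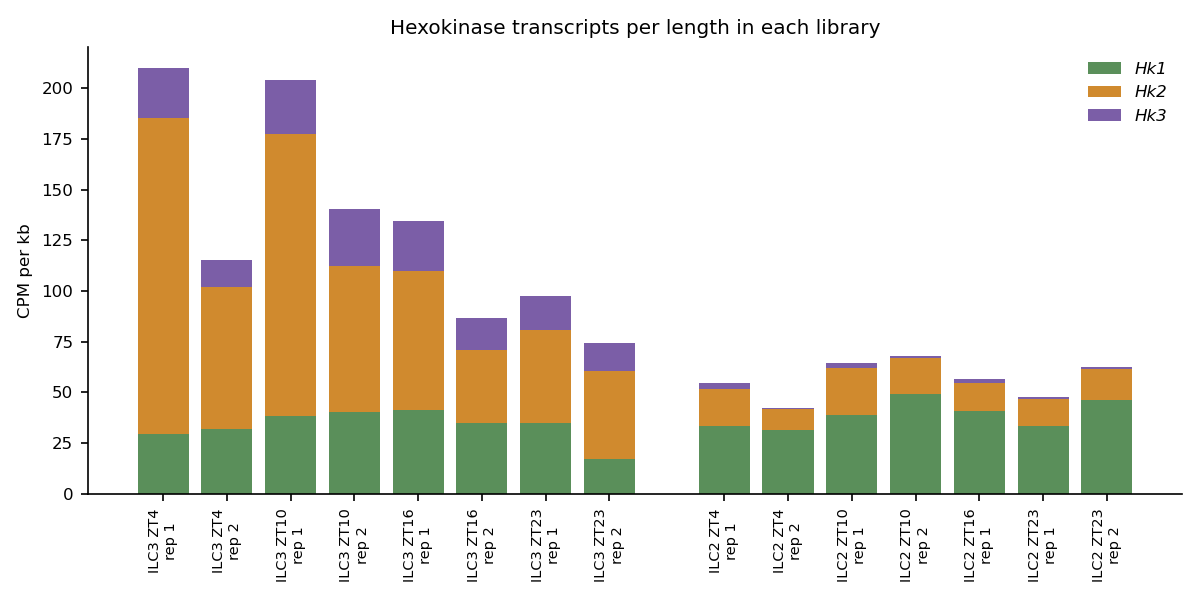
Level of the 3 hexokinase genes in every library as stacked bars, in CPM per kb of the deposited gene length, ILC3 libraries on the left and ILC2 libraries on the right. Hk2 is the largest part of each ILC3 bar, though nearly equal to Hk1 in replicate 2 at ZT16, and Hk1 is that of each ILC2 bar. The totals are 74.3 to 210 CPM per kb in ILC3 and 42.6 to 67.8 in ILC2.

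Pfkp, which encodes the platelet-type phosphofructokinase, differed by less than Hk2 but more evenly. Pfkp (Entrez 56421; chromosome 13, 6579874 to 6649060) had 168 and 181 CPM (ZT4), 185 and 207 CPM (ZT10), 186 and 186 CPM (ZT16) and 193 and 156 CPM (ZT23) in ILC3. In ILC2 it had 117 and 97.6 CPM (ZT4), 121 and 148 CPM (ZT10), 126 CPM (ZT16) and 99.7 and 118 CPM (ZT23). Every ILC3 library lay above every ILC2 library (156 CPM at the lowest against 148 CPM at the highest). The difference was 1.54-fold (log2 0.62 ± 0.12, SE; edgeR adjusted p = 0.00182) and was called under all 24 alternatives. The liver-type gene Pfkl was also higher in ILC3, at 89.3 ± 16.2 CPM in ILC3 and 67.0 ± 8.69 CPM in ILC2 (log2 0.38 ± 0.13, SE; adjusted p = 0.0443), and the muscle-type gene Pfkm was lower, at 14.1 ± 2.12 CPM in ILC3 and 21.9 ± 2.48 CPM in ILC2 (-0.64 ± 0.15, SE; adjusted p = 0.0066). The ratio of Pfkp to Pfkl was 1.58 to 2.30 in ILC3 and 1.25 to 2.18 in ILC2, and the difference of 0.23 in mean log2 ratio did not pass (exact permutation p = 0.133, adjusted p = 0.133).

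Aldoa was the member furthest below ILC2. Aldoa (Entrez 11674; chromosome 7, 126795234 to 126800994), the main aldolase of lymphocytes, had 497 and 399 CPM (ZT4), 405 and 471 CPM (ZT10), 429 and 414 CPM (ZT16) and 436 and 434 CPM (ZT23) in ILC3. In ILC2 it had 916 and 710 CPM (ZT4), 554 and 744 CPM (ZT10), 683 CPM (ZT16) and 698 and 738 CPM (ZT23). All ILC3 libraries fell within 399 to 497 CPM, under the lowest ILC2 library. The log2 fold change was -0.71 ± 0.13 (SE; edgeR adjusted p = 0.0013), so that Aldoa was 1.64-fold higher in ILC2. The ILC2 libraries with the lowest and the highest plasma and B cell sums, replicates 2 and 1 at ZT23 with 18789 and 192283 CPM, had 738 and 698 CPM of Aldoa. The part of plasma and B cell RNA in the Aldoa difference was not tested. Aldoc, the brain-type aldolase, had 9.54 to 22.7 CPM in ILC3 and 9.38 to 37.4 CPM in ILC2 and was not called (edgeR adjusted p = 0.802). The retrogene Aldoart1, a near copy of Aldoa named after its values were seen, had 12.8 to 18.8 CPM in ILC3 and 16.4 to 33.3 CPM in ILC2, and how reads shared by such copies were counted is not given in the sources used here.

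Of the 4 members in the payoff part of the pathway, Eno1, Pgk1, Pkm and Ldha, Eno1 was called. Eno1 (Entrez 13806; chromosome 4, 150236708 to 150248879), which makes phosphoenolpyruvate, had 249 and 181 CPM (ZT4), 186 and 234 CPM (ZT10), 229 and 228 CPM (ZT16) and 192 and 198 CPM (ZT23) in ILC3. In ILC2 it had 191 and 133 CPM (ZT4), 114 and 144 CPM (ZT10), 152 CPM (ZT16) and 131 and 150 CPM (ZT23). The ranges overlapped through replicate 1 of ILC2 at ZT4, and at the other 3 times the ILC3 libraries lay above. The log2 fold change was 0.54 ± 0.14 (SE; edgeR adjusted p = 0.0112). Eno3, the muscle enolase, was also higher in ILC3, at 7.86 to 16.5 CPM in ILC3 and 4.47 to 6.46 CPM in ILC2 (1.09 ± 0.23, SE; adjusted p = 0.00429), while the neuronal Eno2 stayed at or under 1.46 CPM in all libraries and was not called (adjusted p = 0.548). The retrogene Eno1b, likewise named after its values were seen, had 17.2 to 31.9 CPM in ILC3 and 11.4 to 19.5 CPM in ILC2.

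Pgk1, Pkm and Ldha did not separate the cell types. Pgk1 (chromosome X, 106187100 to 106203699), the first ATP-making enzyme of the pathway, had 122 to 253 CPM in ILC3 (median 138) and 120 to 185 CPM in ILC2 (median 135), a log2 difference of 0.12 ± 0.16 (SE; edgeR adjusted p = 0.624). Pkm (chromosome 9, 59656576 to 59679372), the pyruvate kinase gene of most non-liver cells, had 600 to 893 CPM in ILC3 (median 681) and 540 to 780 CPM in ILC2 (median 686), a difference of 0.03 ± 0.13 (SE; adjusted p = 0.902). Ldha (chromosome 7, 46842274 to 46855627), the lactate-forming dehydrogenase gene, had 542 to 1024 CPM in ILC3 (median 594) and 536 to 983 CPM in ILC2 (median 666), a difference of 0.02 ± 0.18 (SE; adjusted p = 0.978). Pgk1 and Ldha were highest among ILC3 libraries, at 253 and 1024 CPM, in replicate 2 at ZT23, where Hk1 and Slc2a3 were lowest. That library had an epithelial sum of 2734 CPM against 187 to 1132 CPM in the other ILC3 libraries, and the part of epithelial RNA in these 4 values was not tested. Without it the differences were -0.02 for Pgk1 and -0.10 for Ldha.

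Ldhb, whose subunit favours the conversion of lactate to pyruvate, was higher in ILC3. It averaged 22.9 ± 4.80 CPM in ILC3 (SD, n = 8) and 11.4 ± 2.83 CPM in ILC2 (SD, n = 7), a log2 fold change of 1.04 ± 0.22 (SE; edgeR adjusted p = 0.00391). Its ratio to Ldha per kilobase was 0.0269 to 0.0787 in ILC3 and 0.0159 to 0.0347 in ILC2, a difference of 1.04 in mean log2 ratio (exact permutation p = 0.00309, adjusted p = 0.00412). The ranges overlapped, with the lowest ILC3 ratio again in replicate 2 at ZT23. Ldha was the leading lactate dehydrogenase transcript by a wide margin in every library of both cell types.

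**Figure D4:**
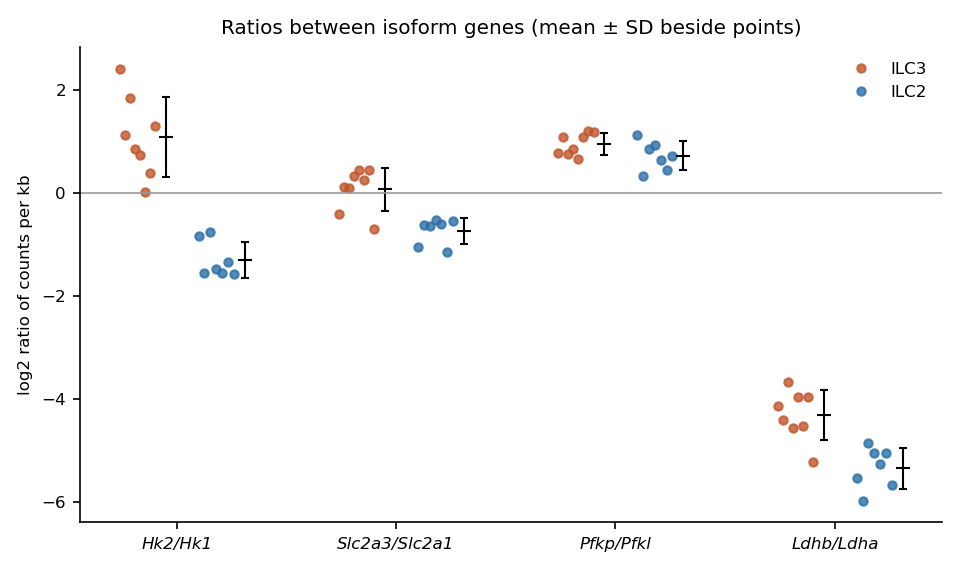
Log2 ratio of counts per kb between isoform genes within each library (points), ILC3 in orange left of ILC2 in blue, with the mean ± SD beside each set. The Hk2 to Hk1 ratio has a mean of 1.08 in ILC3 and -1.30 in ILC2 with no overlap, and the other 3 ratios overlap between the cell types.

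Set side by side per kilobase, the order of the genes differed between the cell types in a few places. In ILC3 the means were 353 ± 87.7 CPM per kb for Ldha, 269 ± 37.2 for Pkm, 239 ± 18.3 for Aldoa, 119 ± 14.4 for Eno1, 86.4 ± 23.4 for Pgk1, 78.7 ± 44.8 for Hk2, 45.8 ± 3.84 for Pfkp, 33.6 ± 7.68 for Hk1, 23.5 ± 4.86 for Slc2a3 and 22.4 ± 5.39 for Slc2a1 (SD, n = 8). In ILC2 they were 395 ± 58.8 CPM per kb for Aldoa, 357 ± 78.2 for Ldha, 261 ± 28.3 for Pkm, 81.6 ± 13.6 for Eno1, 79.6 ± 12.2 for Pgk1, 39.0 ± 6.87 for Hk1, 31.1 ± 2.64 for Slc2a1, 29.6 ± 4.26 for Pfkp, 18.8 ± 2.91 for Slc2a3 and 16.1 ± 4.06 for Hk2 (SD, n = 7). Ldha, Pkm and Aldoa led in both, followed by Eno1 and Pgk1, and the transporters, Hk1 and Pfkp had lower means in both. Hk2 was sixth in ILC3 and last in ILC2. Neighbours such as Pkm and Aldoa in ILC3, Pgk1 and Hk2 in ILC3, Aldoa and Ldha in ILC2, Eno1 and Pgk1 in ILC2, and the 2 transporters in ILC3 lay within their combined SDs. Among all genes tested, the 10 lay above 77.2% to 98.9% of genes in ILC3 and above 71.1% to 98.9% in ILC2 by level per kilobase, Slc2a1 being the lowest in ILC3 and Hk2 in ILC2.

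The second question of the design was whether levels change over the day. None of the 10 genes was called over the 4 times in ILC3, in ILC2, or in the interaction of time and cell type, where edgeR called 0 of 15339 genes (0.0%) in each of these tests. At an unadjusted p under 0.05 there were 669 genes in ILC3 (4.36%), 516 in ILC2 (3.36%) and 307 for the interaction (2.0%). DESeq2 called 28, 24 and 2 genes in the same tests, none of them a member, and limma-voom called 0. Hk2 in ILC3 was the single member under that unadjusted level, with an adjusted p = 0.965 in edgeR and an adjusted p = 0.192 in DESeq2. Its means of the times in ILC3 ran from 244 CPM at ZT23 to 623 CPM at ZT4, a ratio of 2.55. The 2 libraries at ZT4 differed from each other by 474 CPM, more than the 379 CPM between the means of ZT4 and ZT23. Those at ZT23 lay close together, at 251 and 238 CPM. All ILC3 libraries at ZT4 and ZT10 (386 CPM or more) lay above all at ZT16 and ZT23 (378 CPM or less), an order that was not tested.

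In ILC2 the Hk2 means ranged from 76.6 CPM at ZT16 to 112 CPM at ZT10, a ratio of 1.46. The ILC3 to ILC2 difference of Hk2 was 2.95 ± 0.48 at ZT4, 2.37 ± 0.47 at ZT10, 1.91 ± 0.60 at ZT16 and 1.62 ± 0.45 at ZT23 on the log2 scale (SE), and the interaction did not pass (adjusted p = 1.0 in edgeR). For the other 9 genes, the highest mean of a time was 1.06 (Aldoa) to 1.51 (Slc2a3) times the lowest in ILC3, and 1.15 (Slc2a1) to 1.45 (Ldha) times in ILC2. Mean levels of Pfkp moved by 1.12 times in ILC3 and 1.25 times in ILC2, with its highest mean at ZT10 in both. Hk2 and Pfkp were higher and Aldoa was lower in the ILC3 libraries than in the ILC2 libraries of the same time at all 4 times. Eno1 and Slc2a3 were higher at 3 and Slc2a1 was lower at 3. Pgk1 was higher at 1, Pkm was higher at 1 and lower at 1, and Hk1 and Ldha separated at 0. Each time sets 2 ILC3 libraries against 2 or 1 of ILC2, and how often other genes separate this way was not counted.

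Genes of the remaining glycolytic steps also differed in both directions. Of 16 other glycolytic enzymes and isoforms, 6 were higher and 4 lower in ILC3 (62.5% called, beside 27.1% of all genes tested). Their median log2 fold change was 0.38, against 0.11 over all genes tested. Besides Hk3, they included Pgam1, the main phosphoglycerate mutase, with 53.3 ± 9.90 CPM in ILC3 and 25.8 ± 3.47 CPM in ILC2 (log2 1.06 ± 0.15, SE; edgeR adjusted p = 0.000246). Adpgk, an ADP-dependent glucokinase of the endoplasmic reticulum, was lower in ILC3, with 47.2 ± 7.24 CPM in ILC3 and 91.1 ± 12.6 CPM in ILC2 (-0.96 ± 0.13, adjusted p = 0.000143), and so was the muscle mutase Pgam2, with 1.55 ± 0.482 CPM in ILC3 and 6.66 ± 1.5 CPM in ILC2 (-2.09 ± 0.34, adjusted p = 0.000589).

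Of 9 other glucose and lactate transporter genes tested, 2 were higher in ILC3 and 0 lower (22.2% called, under the 27.1% of all genes tested). Slc2a6, a lysosomal member of the glucose transporter family, had 43.2 to 119 CPM in ILC3 and 13.9 to 38.5 CPM in ILC2 (log2 1.29 ± 0.25, SE; edgeR adjusted p = 0.00247). Per kilobase it made up 32.7 ± 4.53% of the transcripts of Slc2a1, Slc2a3, Slc2a6, Slc2a8 and Slc2a9 in ILC3 and 15.2 ± 5.25% in ILC2 (SD), while Slc2a1 made up 26.0 ± 4.02% in ILC3 and 41.2 ± 1.47% in ILC2. Slc16a3, the lactate exporter MCT4, had 24.9 to 51.3 CPM in ILC3 and 10.9 to 24.5 CPM in ILC2 (1.16 ± 0.21, adjusted p = 0.00122).

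Regulators of glycolytic flux had 4 of 11 tested genes higher and 1 lower in ILC3 (45.5% called, beside 27.1% of all genes tested). Pfkfb3, which makes the activator of phosphofructokinase fructose 2,6-bisphosphate, had 85.6 ± 25.6 CPM in ILC3 and 40.7 ± 7.01 CPM in ILC2 (log2 1.05 ± 0.18, SE; edgeR adjusted p = 0.000933), and Pgm2, a phosphopentomutase, was higher in ILC3 by 0.89 ± 0.15. The arrestin genes Arrdc4 and Txnip, whose products restrain glucose uptake, differed in opposite directions. Arrdc4 had 370 ± 82.9 CPM in ILC3 and 65.6 ± 21.8 CPM in ILC2 (2.52 ± 0.24, adjusted p = 1.29e-05), and Txnip had 162 ± 62.9 CPM in ILC3 and 455 ± 211 CPM in ILC2 (-1.51 ± 0.26, adjusted p = 0.000902). For pyruvate entry into mitochondria 2 of 13 genes were higher in ILC3 and 0 lower (15.4% called, under the share of all genes). They were the pyruvate dehydrogenase phosphatase Pdp1 (1.19 ± 0.21, edgeR adjusted p = 0.00106) and the pyruvate carrier subunit Mpc1 (0.53 ± 0.17, adjusted p = 0.0409). In the pentose phosphate pathway 2 of 7 genes were higher and 0 lower (28.6% called, near the share of all genes). They were its first enzyme G6pdx (0.84 ± 0.16, edgeR adjusted p = 0.00194) and Pgd (0.46 ± 0.16, adjusted p = 0.0448).

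Among 20 genes of hypoxia and the HIF pathway, 5 were higher and 4 lower in ILC3 (45.0% called, beside 27.1% of all genes tested). Epas1, which encodes HIF-2alpha, had 93.5 to 258 CPM in ILC3 and 840 to 1423 CPM in ILC2 (log2 -2.85 ± 0.23, SE; edgeR adjusted p = 3.62e-06). The HIF target Vegfa, with 157 to 415 CPM in ILC3 and 15.7 to 45.7 CPM in ILC2 (3.15 ± 0.29, adjusted p = 1.07e-05), and Ndrg1, a hypoxia-induced gene (2.11 ± 0.27, adjusted p = 0.000105), were higher in ILC3, and Mxi1, an antagonist of MYC, was lower (-1.32 ± 0.16, adjusted p = 6.71e-05). Hif1a itself, added after its values were seen, had 143 to 341 CPM in ILC3 and 150 to 297 CPM in ILC2 and was not called (adjusted p = 0.907). Of 16 genes of the MYC and mTORC1 pathway 1 was higher and 2 were lower (18.8% called): Max, the partner of MYC, was higher in ILC3 (0.84 ± 0.18, adjusted p = 0.00481), and the amino acid transporter subunits Slc7a5 (-1.26 ± 0.19, adjusted p = 0.000431) and Slc3a2 (-1.02 ± 0.18, adjusted p = 0.00134) were lower. Of 8 enterocyte sugar genes 0 were called. No gene of these 8 lists was called over time.

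**Figure D5:**
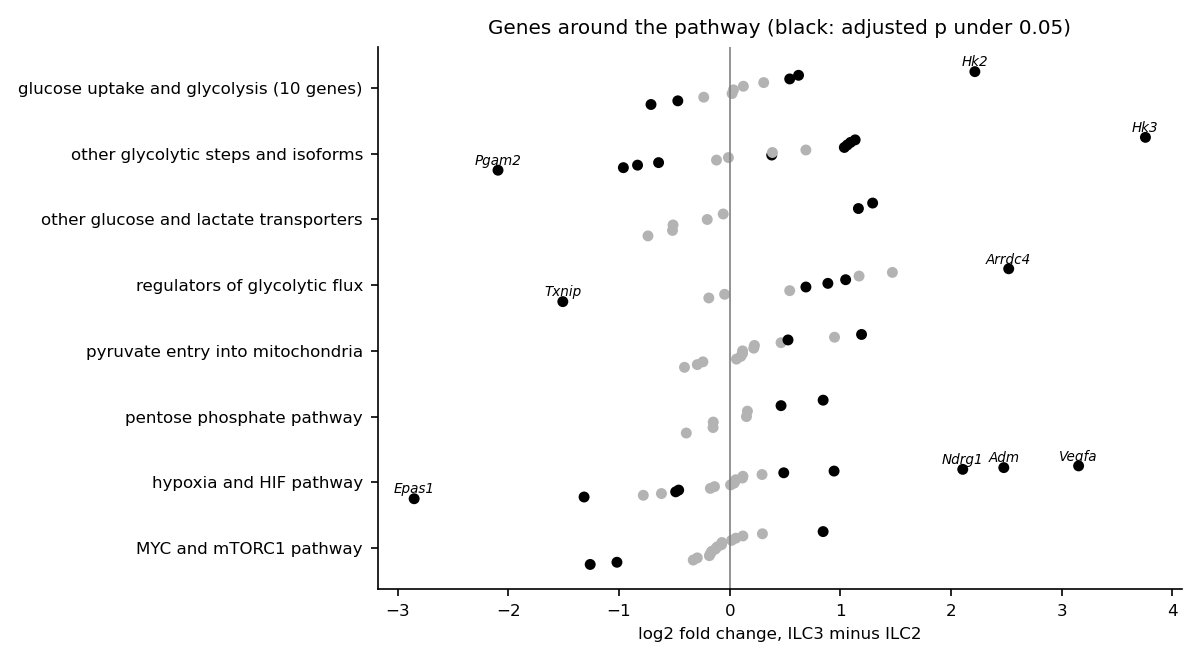
Log2 fold change, ILC3 minus ILC2, of each gene of the pathway lists (points), black where the adjusted p was under 0.05; 97 genes with a mean of at least 1 CPM are drawn of 102 tested. Called genes lie on both sides of 0 in the rows of the 10 genes, of other glycolytic steps, of flux regulators, of hypoxia and of MYC and mTORC1, and Hk3 (3.76), Vegfa (3.15) and Epas1 (-2.85) lie furthest out.

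Within cell types the 10 genes varied together only in part. With log2 CPM centred within each cell type, the 45 pairs of members had Pearson r from -0.82 (Hk1 and Pgk1) to 0.85 (Aldoa and Eno1) over the 15 libraries, with a median of 0.24, and 11 pairs were above 0.5. Pgk1 and Ldha had r = 0.81 and Slc2a3 and Hk1 r = 0.81, and the library from ILC3 at ZT23 with high epithelial genes bears on these 4 genes, as given above. The genes whose centred level was most like the mean of the 10 were Gpi1, the glycolytic enzyme between hexokinase and phosphofructokinase (r = 0.93), the elongation factor Eef2 (0.92), the protease inhibitor Serpinb6b (0.92), the G protein subunit Gnb1 (0.91) and the mannose 6-phosphate receptor M6pr (0.90). These correlations are descriptions over 15 libraries that share their scaling, and Gpi1 itself had 332 to 478 CPM in ILC3 and 319 to 445 CPM in ILC2 and was not called (edgeR adjusted p = 0.994).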

How the data were processed

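PolyA RNA of 15 libraries (8 of ILC3, 7 of ILC2) was sequenced after TruSeq preparation from 100 ng of total RNA, per the labels' protocols. The authors deposited raw read counts per Entrez gene with gene lengths, made with featureCounts on mm10 per the submitters' processing notes; aligner, strand setting and treatment of multiply mapping reads are not given in the sources used here. Gene names and positions came from RefSeq for GRCm38.p6 (22718 of 22797 genes matched).

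Genes were kept with filterByExpr (minimum count 10) and scaled with TMM. One quasi-likelihood model with a mean for each of the 8 groups (edgeR 4.0.16 in R 4.3.3) used every library, which left 7 residual degrees of freedom; the common biological coefficient of variation was 0.425. Tests were the cell type difference, time within each cell type and their interaction, with Benjamini-Hochberg adjustment over 15339 genes. Isoform ratios were compared by exact permutation of cell type within time. Correlations used log2(CPM + 0.5). Replicates of a group differed by a chi-square per gene of 22.0 to 229, above sampling noise. Companion genes named are the isoforms of members and up to 4 called genes per list with the smallest p, and the 5 genes most like the members at a mean of at least 10 CPM; exceptions are marked. The 10 genes, the lists and the tests were chosen with earlier results of these data known. Alternatives were other scalings, DESeq2 1.42.0, limma-voom 3.58.1, no filter, plasma and B cell genes removed (8 genes), each library left out, and a replicate block. The pipeline was tested on simulated data.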

Additional observations from a re-analysis of the deposited data

Results flagged for a closer look

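Slc2a1 in replicate 1 of ILC3 at ZT4 had 88.9 CPM, set apart by Dixon's criterion (its gap to the nearest library was 0.603 of the range of the 8 libraries, above the 95% critical value) from the other 7 ILC3 libraries, which had 41.3 to 60.2 CPM. This library had the lowest depth of the ILC3 libraries, 5903163 counts. Among them it was also the highest for Hk2 (861 CPM), Pkm (893 CPM), Aldoa (497 CPM) and Eno1 (249 CPM).

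Pgk1 in replicate 2 of ILC3 at ZT23 had 253 CPM, set apart by the same criterion (a gap of 0.645 of the range) from the other 7 ILC3 libraries, which had 122 to 169 CPM. Ldha (1024 CPM), the epithelial sum (2734 CPM) and the erythroid sum (1045 CPM) were highest in the same library, and their part in the Pgk1 value was not tested. Each gene was examined in both cell types, 20 sets of libraries in all, of which these 2 were set apart; at this critical value chance flags about 1 in 20 sets.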

How the results depend on the processing

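The direction and call of Hk2 and Pfkp held under all 24 alternatives, and those of Aldoa and Eno1 under 23. Among the 24, the fit without the ILC2 library of ZT16 and the unblocked fit on the 14 numbered libraries are the same fit. It averages the ILC3 to ILC2 difference over ZT4, ZT10 and ZT23 only, as does the blocked fit. The count of called members stayed at 5 under the other scalings, DESeq2, limma-voom, no filter and removal of plasma and B cell genes. With library size alone, though, Slc2a3 took the place of Slc2a1. The removal took out 8 genes and left any reads from plasma and B cells in the members, so it cannot show the part of such RNA. Leaving out each library gave 5 to 6 called members and 3270 to 4214 called genes. Without 3 libraries chosen after seeing the data (replicate 2 of ILC3 at ZT4, replicate 2 of ILC3 at ZT23 and replicate 1 of ILC2 at ZT23) 5 were called.

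The replicate block was a term for replicate 2 in each cell type. Its ILC3 to ILC2 difference therefore compared the levels fitted for replicate 1, not the average of both replicates used elsewhere. With the block, 2 members were called, Hk2 and Pfkp, and 1700 genes (4157 without it over all libraries). On the same 14 libraries without it, 5 members and 3613 genes were called. The log2 values of the 3 lost calls were -0.68 for Aldoa, 0.53 for Eno1 and -0.47 for Slc2a1 under the block, and -0.72, 0.53 and -0.47 on the same libraries without it. Same-numbered samples had correlations of -0.15 to 0.49, so the numbers were not taken to pair the samples. Under the block Pgk1 was at -0.12 and Ldha at -0.092, and without the 3 libraries Ldha was at -0.080; leaving out single libraries moved Pgk1 over -0.016 to 0.22, Pkm over -0.033 to 0.090 and Ldha over -0.10 to 0.11, and the cause was not tested. No member was called over time or for the interaction under any alternative, and the 4 isoform ratios kept direction and side of the threshold under 18 alternatives each. With 2 libraries per time, and 1 for ILC2 at ZT16, changes over the day could go uncalled, and not only small ones. The Hk2 means of the times in ILC3 ran over a ratio of 2.55 without a call. The absence of calls therefore does not show that levels stayed constant.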

Other observations

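Gapdh, the glycolytic enzyme between aldolase and phosphoglycerate kinase and one of the most abundant transcripts of most cells, was listed at only 6.63 to 10.2 CPM in ILC3 and 1.81 to 6.97 CPM in ILC2. A pseudogene, Gapdh-ps15 (Entrez 100042025; GRCm38.p6 chromosome Y, 38619739 to 38620971), was listed at 293 to 419 CPM in ILC3 and 244 to 422 CPM in ILC2, although the mice were female per the labels. Both were singled out after their values were seen. Gapdh was called higher in ILC3 (log2 fold change 1.13 ± 0.34, SE; edgeR adjusted p = 0.0279), a call that rests on these low counts. The call was lost in 5 of the fits that each left out 1 library, at adjusted p = 0.0502 to 0.0732: replicates 1 and 2 of ILC3 at ZT10, replicate 2 of ILC3 at ZT16, replicate 2 of ILC2 at ZT10 and replicate 1 of ILC2 at ZT23. It was lost as well with a replicate block, which compared the levels fitted for replicate 1 (log2 0.97, edgeR adjusted p = 0.315). How the authors' counting divided reads between the gene and its copies was not tested.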
